A study of Mus musculus with 6 samples.

Results

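The nuclear genes for subunits of the mitochondrial respiratory chain and ATP synthase were followed in cancer-associated fibroblasts (CAFs) of the mouse, which are fibroblasts taken from the stroma of a tumour. Members were chosen by gene symbol alone (Nduf followed by a, b, c, s or v and a digit, Sdha to Sdhd, Uqcr, Cyc1, Cox4 to Cox8 with a letter from a to c, and Atp5), which took 83 of the 24015 symbols in the count table. They comprise 37 genes of complex I, 4 of complex II, 9 of complex III, 16 of complex IV and 17 of complex V. Of these, 79 passed the filter on low counts and were among the 13284 genes tested. The table held 0 symbols for the subunits encoded by mitochondrial DNA, which were not analysed here.

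RNA was measured by poly(A) sequencing of primary CAFs isolated from mammary tumours of NeuT transgenic mice, which carry an activated rat Her2/neu oncogene, on a BalbC background. All 6 samples share that origin, and all received siRNA in nanoparticles at 1 ug/mL for 72 hours: 3 samples got control siRNA and 3 got anti-Stat3 siRNA. The study asked which genes depend on STAT3 in these cells, and the titles number the samples 1 to 3 in both groups. Whether the samples of a group are separate cultures or animals is not stated in the labels, and the p-values cover only the spread among these samples. Samples with equal numbers resembled each other more than samples with unequal ones and are called a pair here. Levels are CPM, that is, counts relative to the TMM-scaled total of each library, and a pair change is the log2 ratio of the anti-Stat3 sample to the control of its number. A mean pair change is given ± SD over the 3 pairs.

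The libraries held 12998168 to 18683852 counts, so that a gene at 0 counts could have had up to 0.231 CPM in the shallowest library (counting error only). Stat3 itself had 220, 359 and 405 CPM in control samples 1 to 3 against 34.7, 81.9 and 78.9 CPM in their anti-Stat3 counterparts. All 10 fibroblast markers were present in every sample, with a summed level of 21682 to 68798 CPM in the controls against 25456 to 52669 CPM in the anti-Stat3 samples, lowest in pair 1 in both groups. The summed level of 15 macrophage markers was 47.8, 1680 and 2273 CPM in the controls against 42.8, 1587 and 2639 CPM in the anti-Stat3 samples, and C1qa, C1qb and C1qc had at most 2 counts in the samples of pair 1. The 12 epithelial markers summed to 149, 439 and 45.4 CPM in the controls against 146, 442 and 47.8 CPM in the anti-Stat3 samples. The 6 endothelial markers summed to at most 34.3 CPM, the 7 skeletal muscle markers to at most 48.1 CPM (Ckm at 0 throughout) and the 6 adipocyte markers to at most 0.135 CPM. The pairs therefore differed in which cells they held or in what those cells transcribed, and in bulk RNA fewer cells of a type and less RNA per cell cannot be told apart.

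Complexes I and II pass electrons from NADH and succinate to ubiquinone, complex III passes them on to cytochrome c, and complex IV, cytochrome c oxidase, hands them to oxygen. Complexes I, III and IV pump protons as they do so, and complex V, the ATP synthase, uses the returning protons to make ATP. Most subunits are encoded in the nucleus and are expressed in nearly every cell type, while a few have isoforms made mainly in muscle, in testis or in low oxygen. A part of cellular STAT3 is also known to reside in mitochondria, where it has been tied to complex I activity.

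Ndufa4 and its paralogue Ndufa4l2 are shown because they differed most in behaviour although their products are alike. Ndufa4 was first described as a subunit of complex I and is now regarded as one of complex IV. Ndufa4l2 encodes a related protein that is known to be induced by the hypoxia-inducible factor HIF1 and to lower oxygen consumption. Both are counted with complex I here by symbol. Their coding sequences in the GENCODE M21 annotation (GRCm38) follow, 5′ to 3′, with the longest run they share in capitals.
Ndufa4: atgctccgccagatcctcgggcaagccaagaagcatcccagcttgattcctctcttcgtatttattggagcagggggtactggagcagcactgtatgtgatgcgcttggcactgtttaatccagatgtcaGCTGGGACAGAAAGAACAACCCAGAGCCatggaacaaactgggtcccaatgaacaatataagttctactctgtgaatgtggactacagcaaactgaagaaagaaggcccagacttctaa
Ndufa4l2: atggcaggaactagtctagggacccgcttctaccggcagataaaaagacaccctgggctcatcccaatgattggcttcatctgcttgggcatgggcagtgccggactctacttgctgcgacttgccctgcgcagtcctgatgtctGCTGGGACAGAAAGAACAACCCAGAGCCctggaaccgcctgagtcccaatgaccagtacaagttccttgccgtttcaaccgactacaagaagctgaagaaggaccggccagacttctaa
The sequences have 249 and 264 bases, are identical at 63.6% of 269 aligned columns, and share a run of 28 bases. No window of 50 bases of either transcript was found in another annotated gene.

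Ndufa4l2 was the member that stood apart after anti-Stat3 siRNA. It had 3.38, 70.9 and 82.2 CPM in control samples 1 to 3 against 1.44, 5.32 and 41.4 CPM in anti-Stat3 samples 1 to 3, from 50, 1340 and 1371 counts and 23, 79 and 540 counts. Each anti-Stat3 sample lay below the control of its own number, at 42.6%, 7.5% and 50.4% of it, yet the groups overlapped because control sample 1 was low. The pair changes were -1.16, -3.70 and -0.99, with a mean of -1.95 ± 1.52.

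The change of Ndufa4l2 did not pass the test in the edgeR quasi-likelihood fit with the group alone, where it was -1.70 ± 1.42 (SE, Benjamini-Hochberg adjusted p = 0.9998). With the pair as a block it was -2.03 ± 0.52 in edgeR (SE, adjusted p = 0.199), and it did not pass in DESeq2 (-1.94 ± 0.79, adjusted p = 0.282) or limma-voom (-2.04 ± 0.50, adjusted p = 0.158) with that block either. Blocked edgeR with pair 1 left out called it lower, at -2.19 ± 0.42 (SE, adjusted p = 0.0062), in a fit that called 5.2% of the genes tested, while blocked DESeq2 without pair 1 did not (-2.35 ± 1.14, SE, adjusted p = 0.527). With pair 2 left out the blocked edgeR change was -1.07 (adjusted p = 0.334), and with pair 3 left out it was -2.97 (adjusted p = 0.9997). With the group alone the change was -3.95 when anti-Stat3 sample 3 was left out, -2.27 without control sample 1, and smaller in size than with all samples when any other sample was left out: -1.16 without anti-Stat3 sample 1, -1.21 without control sample 3, -1.30 without anti-Stat3 sample 2 and -1.42 without control sample 2.

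The level of Ndufa4l2 also differed between the numbered pairs by the edgeR test of the replicate number (adjusted p = 0.0041). The summed macrophage and fibroblast markers were lowest in pair 1 as well, and their part in this difference was not tested. Within pair 2, where Ndufa4l2 had the lowest share of its control, the macrophage sum was 1680 CPM in the control against 1587 CPM in the anti-Stat3 sample, while the fibroblast sum was 64737 against 42100 CPM. Ndufa4l2 is also known from pericytes. The sum of 7 pericyte markers, a list added after the data were seen, was 159, 137 and 72 CPM in the controls against 202, 154 and 92 CPM in the anti-Stat3 samples. Its members went both ways: 5, 2 and 3 of the 5 tested markers were higher in pairs 1 to 3, with pair medians of 0.32, -0.02 and 0.31. Blocked DESeq2, which called 1.66% of all genes, called 1 of them higher, Mcam (adjusted p = 0.026). It also called 1 of the 15 macrophage markers higher, Cd74 (adjusted p = 0.026). The part of the pericyte markers in the change of Ndufa4l2 was not tested. Of 1095 exon bases of Ndufa4l2, 32 overlap Shmt2, a mitochondrial enzyme of serine metabolism, whose pair changes were -0.08, 0.09 and 0.08.

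Ndufa4 did not follow its paralogue. It had 113.7, 77.9 and 89.2 CPM in control samples 1 to 3 against 121.5, 91.7 and 119.8 CPM in the anti-Stat3 samples, higher within each pair, with overlapping groups. Its mean pair change was 0.25 ± 0.17 (blocked edgeR adjusted p = 0.465). Per kilobase of transcript, the level of Ndufa4l2 was 1.44%, 44.1% and 44.6% of that of Ndufa4 in the controls and 0.574%, 2.81% and 16.7% after anti-Stat3 siRNA. In each sample Ndufa4 was thus the more abundant of the pair of paralogues per length.

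**Figure D1:**
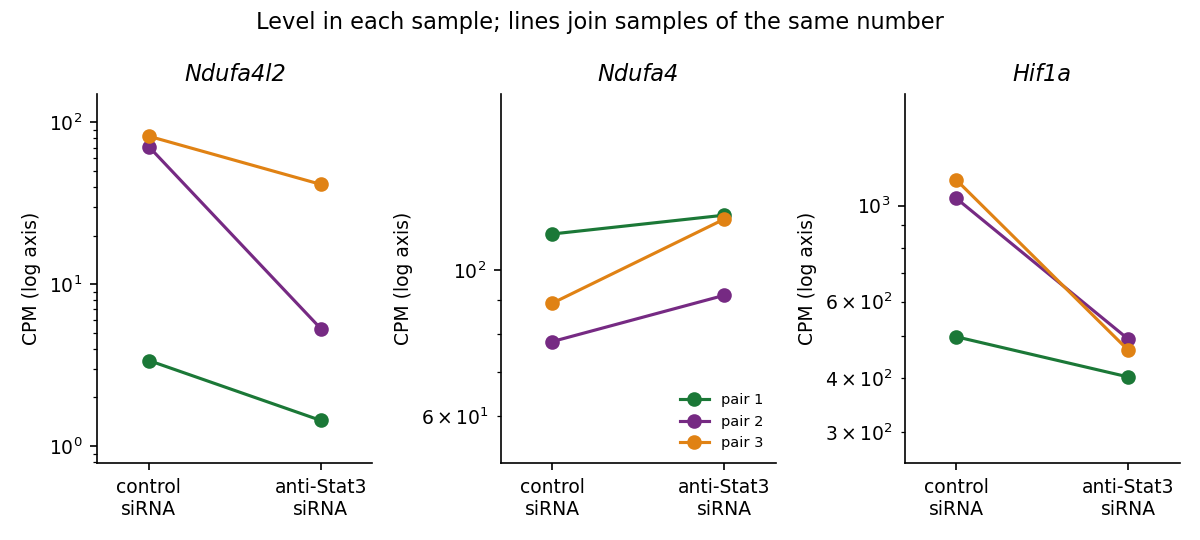
Level in CPM (log axis) of Ndufa4l2, Ndufa4 and Hif1a in each of the 6 samples, with lines joining samples of the same number. Ndufa4l2 and Hif1a are lower in the anti-Stat3 sample of every pair, while Ndufa4 is higher in every pair.

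Among the other nuclear subunit genes no member passed the test for the siRNA. With the group alone, edgeR called 0 of the 79 tested members (0.0% of all genes tested), and 0 had an unadjusted p under 0.05 (1.77% of all genes). Stat3 itself did not pass in that fit (-2.33 ± 0.41, SE, adjusted p = 0.9998) and passed with the pair as a block (adjusted p = 0.0027). A count of 0 in that fit does not show that levels were equal. With the pair as a block, edgeR called 0 members (0.0602% of all genes), DESeq2 0 (1.66%) and limma-voom 0 (0.0602%). At an unadjusted p under 0.05, blocked edgeR had 2 members, Ndufa4l2 and Ndufa13, where 10.8% of all genes lay under it, blocked DESeq2 had 2 (8.05% of all genes) and blocked limma-voom 5 (11.2%).

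The sizes of the changes were small. Among the 68 members with a mean of at least 10 CPM other than Ndufa4l2, the mean pair change ran from -0.08 (Ndufv3) to 0.34 (Ndufs8), so that none exceeded 1.27-fold, and the median gene stood at 110.6% of its control. The median log2 change over the 79 members was 0.14 in edgeR with the group alone, against -0.0028 over all genes tested, and 69 of the 79 values were positive. That median depended on single samples: it was 0.0056 with anti-Stat3 sample 3 left out, 0.06 without control sample 2 and 0.28 without anti-Stat3 sample 2. It was also 0.06 in blocked edgeR with pair 3 left out and 0.21 with pair 2 left out.

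The 3 pairs did not act alike. The median member changed by 0.16 in pair 1, -0.06 in pair 2 and 0.29 in pair 3, where the median of all genes was 0.0011, -0.00 and 0.01. Members with a higher level after anti-Stat3 siRNA numbered 66, 30 and 71 of 79 in pairs 1 to 3. Of the 79 members, 21 (26.6%) were higher in all 3 pairs, against 17.3% of all genes tested, and 3 (3.8%) were lower in all 3 pairs, against 16.4%. The 3 were Ndufa4l2, Cox7a1 and Atp5sl, a gene named for its likeness to Atp5s. Atp5s and Atp5sl are counted with complex V here by symbol alone. Atp5sl hardly differed in pair 2 (pair change -0.00013), and Cox7a1 had only 6 to 25 counts per sample. The groups overlapped for all 79 members, with 0 wholly higher (2.45% of all genes) and 0 wholly lower (2.23%).

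**Figure D2:**
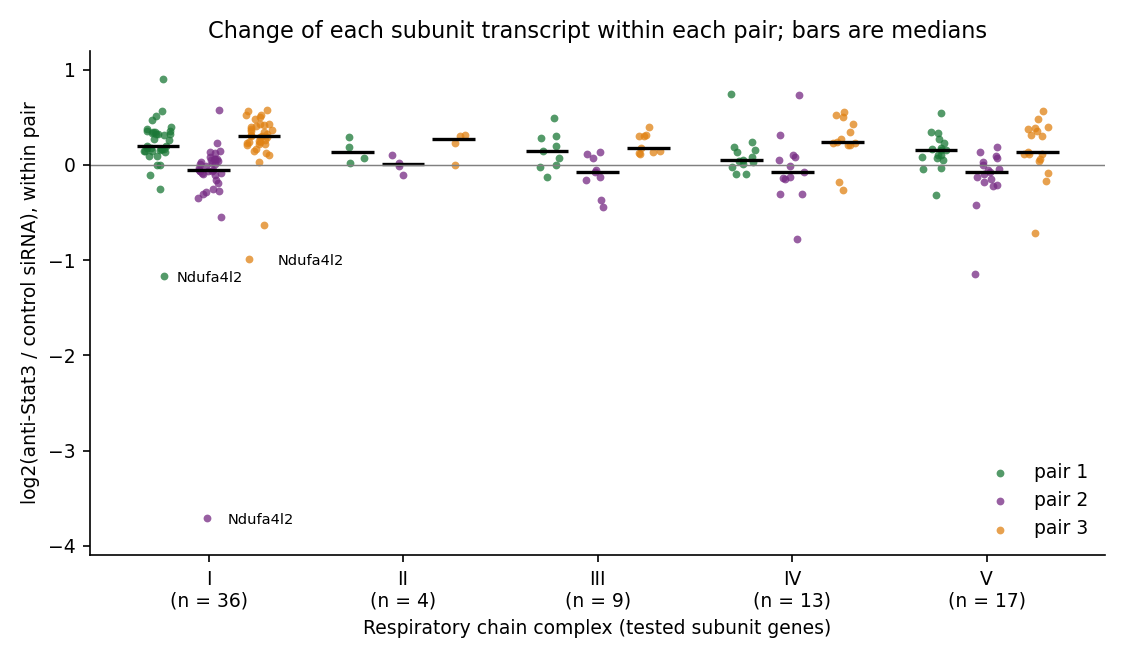
Change within each pair, as log2 of anti-Stat3 over control siRNA, for the 79 tested subunit genes by complex, with 1 point per gene and a bar at the median. Points of pairs 1 and 3 lie mostly above 0 and those of pair 2 around 0, and Ndufa4l2 lies below the other members of complex I in each pair.

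Complex I, which oxidises NADH, had pair medians of 0.20, -0.05 and 0.31 over its 36 tested members. Ndufs1, the largest subunit of the electron-carrying arm, had 96.9, 96.7 and 83.9 CPM in the controls against 96.7, 97.1 and 85.6 CPM in the anti-Stat3 samples. Its level hardly differed within any pair, with a mean pair change of 0.01 ± 0.02. Ndufv1, which holds the flavin that accepts electrons from NADH, had 55.9, 54.8 and 62.7 CPM in the controls against 71.9, 52.5 and 74.1 CPM in the anti-Stat3 samples. It was higher in pairs 1 and 3 and slightly lower in pair 2.

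Ndufa13, also called GRIM-19, is a subunit of complex I that is known to bind STAT3. It had 52.8, 40.6 and 57.7 CPM in the controls against 68.9, 42.4 and 85.6 CPM in the anti-Stat3 samples. It was higher within each pair, by 0.38, 0.06 and 0.57, and did not pass (blocked edgeR 0.34 ± 0.13, SE, adjusted p = 0.380). Ndufs8, an iron-sulfur subunit, had the largest positive mean pair change of the complex, with 27.9, 25.7 and 37.0 CPM in the controls against 41.5, 24.3 and 53.4 CPM in the anti-Stat3 samples. Pairs 1 and 3 gave that value (0.57 and 0.53), while pair 2 gave -0.08.

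Complex II, succinate dehydrogenase, also belongs to the citric acid cycle, and its 4 genes had pair medians of 0.13, 0.01 and 0.27. Sdha, the flavoprotein, had 161.0, 178.8 and 187.7 CPM in the controls against 183.4, 181.6 and 187.7 CPM in the anti-Stat3 samples, within a narrow range in all samples. Sdhb, the iron-sulfur subunit, had 76.8, 46.7 and 83 CPM in the controls against 93.9, 46.5 and 103.1 CPM in the anti-Stat3 samples. The samples of pair 2 had the lowest Sdhb levels in both groups, and Sdhb differed between the numbered pairs (adjusted p = 0.0033). The membrane anchor Sdhc had 80.3, 84.6 and 95.9 CPM in the controls against 84.6, 78.4 and 112.6 CPM in the anti-Stat3 samples, with a mean pair change of 0.07 ± 0.17. The other anchor, Sdhd, had 109.5, 88.1 and 82 CPM in the controls against 111.1, 95 and 101.6 CPM in the anti-Stat3 samples. It was higher within each pair (0.15 ± 0.15), with overlapping groups.

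Complex III, the cytochrome bc1 complex, had pair medians of 0.15, -0.07 and 0.18 over 9 members. Uqcrc1, a core protein, had 147.5, 99.2 and 146.7 CPM in the controls against 169.4, 107.2 and 180.9 CPM in the anti-Stat3 samples, higher within each pair. Uqcrfs1, the Rieske iron-sulfur protein, had 78.5, 64.9 and 67.1 CPM in the controls against 71.9, 61.7 and 74.3 CPM in the anti-Stat3 samples, with pair changes of both signs. Cyc1, cytochrome c1, had 85.0, 71.2 and 79.9 CPM in the controls against 89.5, 65.3 and 87.2 CPM in the anti-Stat3 samples. Each of the 3 had its lowest level of both groups in pair 2. The most negative mean pair change of the complex, -0.04 ± 0.35, was that of Uqcrh, the hinge protein, which had 80.9, 68.6 and 78.5 CPM in the controls against 89.9, 50.6 and 89.2 CPM in the anti-Stat3 samples. The most positive, 0.26 ± 0.17, was that of Uqcr10, a small accessory subunit, which had 49.6, 35.4 and 43.8 CPM in the controls against 61.3, 37.2 and 58 CPM in the anti-Stat3 samples. Uqcrh was lower in pair 2 alone, and Uqcr10 was higher in all 3 pairs.

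Complex IV had pair medians of 0.05, -0.07 and 0.24 over its 13 tested members. Cox5a had 85.3, 57.4 and 74.3 CPM in the controls against 79.9, 71.3 and 106.6 CPM in the anti-Stat3 samples, and was unlike most members in being higher in pair 2 and lower in pair 1. Cox6c had 53.7, 36.1 and 36.3 CPM in the controls against 55.3, 37.4 and 46.2 CPM in the anti-Stat3 samples. It was higher within each pair, by 0.04, 0.05 and 0.35. Cox7a2l, which takes part in assembling complexes III and IV into supercomplexes, had 89.6, 79.5 and 103.8 CPM in the controls against 99.8, 64.4 and 125.3 CPM in the anti-Stat3 samples. It was lower in pair 2 and higher in pairs 1 and 3. Cox7b had 68.7, 74 and 67.6 CPM in the controls against 67.9, 66.7 and 91.1 CPM in the anti-Stat3 samples. Its pair changes were -0.02, -0.15 and 0.43.

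The isoforms of complex IV known from other tissues were scarce in these cells. Cox6a2 and Cox7a1 are the heart and skeletal muscle isoforms of Cox6a1 and Cox7a2, and Cox6b2 is the testis isoform of Cox6b1. Per kilobase of transcript, Cox6a2 was 0.302% to 1.77% of Cox6a1 over the 6 samples, Cox7a1 was 1.02% to 3.71% of Cox7a2, and Cox6b2 was 2.22% to 14% of Cox6b1. Cox7b2 and Cox8b were at 0 in all 6 samples, and Cox8c had 1 count, in control sample 1, so these 3 were not tested.

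The widespread isoforms had far higher levels. Cox6a1 had 137.2, 103.0 and 136.2 CPM in the controls against 156.6, 93.8 and 161.0 CPM in the anti-Stat3 samples, and Cox8a had 132.4, 105.3 and 144.6 CPM and 140.7, 104.2 and 169.2 CPM. Cox6b1 had 99.7, 75.2 and 93.9 CPM in the controls against 101.7, 71.7 and 108.7 CPM in the anti-Stat3 samples. Cox7a2 had 74.2, 58.6 and 54.9 CPM in the controls against 87.7, 53.7 and 64.4 CPM in the anti-Stat3 samples. The mean pair changes of these 4 genes lay between 0.06 and 0.11, and none passed. Cox6a2 had 0.541, 0.635 and 2.88 CPM in the controls against 0.564, 1.14 and 2.53 CPM in the anti-Stat3 samples, and was highest in pair 3 in both groups. Cox6b2 had the largest positive mean pair change of the complex (0.45 ± 0.32), with 5.34, 2.49 and 1.32 CPM in the controls against 9.03, 2.69 and 1.92 CPM in the anti-Stat3 samples. It was highest in pair 1 in both groups, did not pass for the siRNA, and had a change of 0.58 with the group alone that turned to -0.40 without anti-Stat3 sample 1. Cox7a1 had the largest negative mean pair change (-0.22 ± 0.11), at 0.744, 0.529 and 1.5 CPM in the controls against 0.690, 0.404 and 1.23 CPM in the anti-Stat3 samples.

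Complex V had pair medians of 0.16, -0.07 and 0.13 over its 17 members. Atp5b, the catalytic beta subunit, had the highest level per kilobase of all members, at 471 ± 77.3 CPM per kilobase (SD, n = 6). It had 970.5, 704.1 and 902.7 CPM in the controls against 1092, 753.7 and 989.6 CPM in the anti-Stat3 samples. It was higher within each pair by a similar amount (0.13 ± 0.04), far less than the difference between pairs 1 and 2, and did not pass (blocked edgeR adjusted p = 0.722). Atp5a1, the alpha subunit, had 506.6, 490.4 and 603.2 CPM in the controls against 535.6, 471.8 and 651.8 CPM in the anti-Stat3 samples. Its groups overlapped widely.

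The c ring that turns in the membrane is built from 3 genes with the same mature product. Atp5g3 was the best counted of them, with 193.5, 161.0 and 134.2 CPM in the controls against 204.2, 169.5 and 176.2 CPM in the anti-Stat3 samples. Atp5g1 had 4.53, 3.23 and 5.88 CPM in the controls against 5.08, 2.76 and 5.22 CPM in the anti-Stat3 samples. Atp5g2 had 0.474, 0.900 and 0.959 CPM in the controls against 0.752, 0.337 and 0.537 CPM in the anti-Stat3 samples, and its mean pair change of -0.44 ± 0.88 was the most negative of the complex, from pair changes of both signs. Per kilobase, the level of Atp5g2 was 0.322% to 1.16% of that of Atp5g3 over the 6 samples. The most positive was that of Atp5l, the g subunit (0.32 ± 0.15), at 3.52, 2.70 and 5.28 CPM in the controls against 4.26, 3.10 and 7.44 CPM in the anti-Stat3 samples. The low levels of Atp5g2 and Atp5l belong to genes whose reads can match elsewhere, as described further on.

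More members were called for the numbered pair than for the siRNA. The edgeR test of the replicate number called 34 of the 79 members (43.0%), against 41.5% of all genes tested, which is near that background. By complex the counts were 16 of 36 in complex I, 1 of 4 in complex II, 3 of 9 in complex III, 10 of 13 in complex IV and 4 of 17 in complex V. Called members with some of the smallest adjusted p-values were Cox6b2 (0.0024), Sdhb (0.0033), Ndufb2 (0.0036), Cox5b (0.0037) and Ndufa4l2 (0.0041). Pair 2 held the lowest sample of both groups for 54 of the 79 members (68.4%), against 22.7% of all genes tested. This held for 25 members of complex I, 1 of complex II, 8 of complex III, 9 of complex IV and 11 of complex V.

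In sum the members held 0.582%, 0.497% and 0.562% of all counts in control samples 1 to 3 against 0.640%, 0.489% and 0.694% in anti-Stat3 samples 1 to 3. The median member deviated from its own mean over the 6 samples by 0.02, -0.26 and 0.03 in the controls and 0.19, -0.32 and 0.32 after anti-Stat3 siRNA, on the log2 scale. Both samples of pair 2 were therefore low, and the highest sample was anti-Stat3 sample 3. The epithelial marker sum was highest in pair 2, at 439 and 442 CPM, and its part in the low subunit levels there was not tested.

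**Figure D3:**
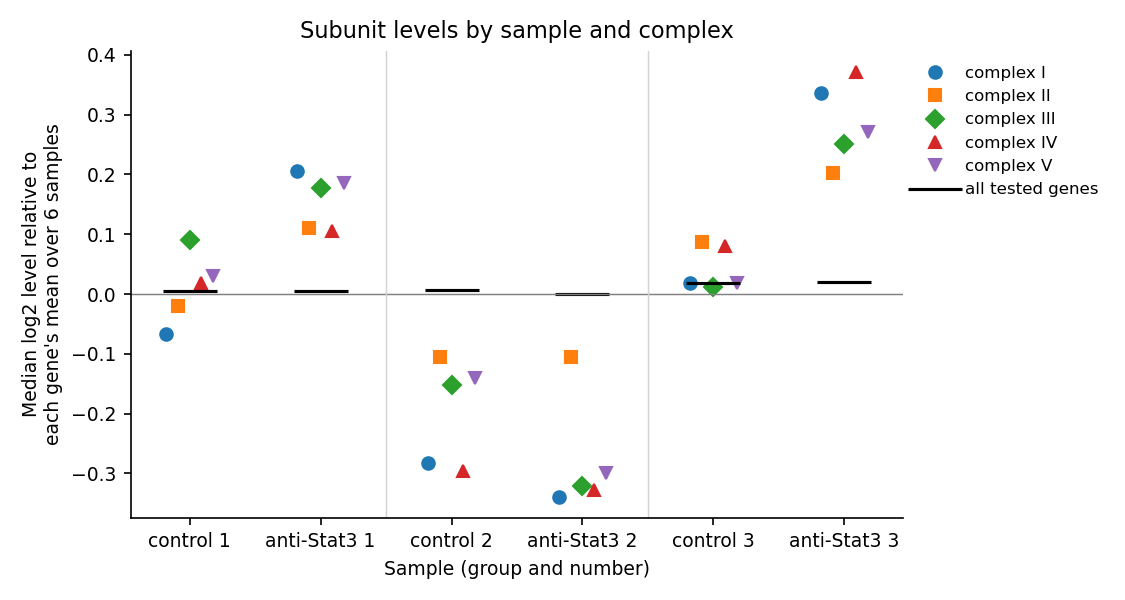
Median log2 level of the tested members of each complex, relative to each gene's mean over the 6 samples, with a black bar for all tested genes. All 5 complexes lie below 0 in both samples of pair 2 and above 0 in anti-Stat3 samples 1 and 3.

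The lower level of Ndufa4l2 within each pair was set beside a list of genes linked to low oxygen, which are mitochondrial apart from Hif1a. Of the 9 genes of that list, all tested and including Ndufa4l2, 7 were lower in all 3 pairs (16.4% of all genes), and the pair medians were -0.26, -1.08 and -0.76. Blocked DESeq2 called 3 of them lower (1.66% of all genes called in either direction). Blocked edgeR and edgeR with the group alone called 0, with 6 (10.8% of all genes) and 2 (1.77%) at an unadjusted p under 0.05. The list overlaps the hypoxia genes already known to be lower in these samples, so its direction is not independent evidence.

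Hif1a, which encodes the oxygen-regulated subunit of HIF1, had 498, 1039 and 1147 CPM in the controls against 402, 492 and 464 CPM in the anti-Stat3 samples. Every anti-Stat3 sample lay below every control, and Hif1a fell in blocked DESeq2 (-0.90 ± 0.20, SE, adjusted p = 0.0012) and did not pass in blocked edgeR (adjusted p = 0.170). Pdk1, a kinase that restrains entry of pyruvate into the citric acid cycle, had 20.4, 51.9 and 65.1 CPM in the controls against 12.2, 19.2 and 38.4 CPM in the anti-Stat3 samples. It fell in blocked DESeq2 (-0.98 ± 0.20, SE, adjusted p = 3.4e-04), as did Bnip3, a mitophagy receptor, with pair changes of -0.74, -1.64 and -0.76. In both, as in Ndufa4l2, the change was largest in pair 2 and the control of pair 1 was the lowest control.

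Cox4i2, the low-oxygen isoform of Cox4i1, was near the counting limit. It had 0.676, 1.16 and 1.38 CPM in the controls against 0.564, 0.202 and 0.460 CPM in the anti-Stat3 samples, so every anti-Stat3 sample lay below every control, and it did not pass (blocked edgeR adjusted p = 0.354). Cox4i1, which the symbol rule does not take because the letter after its first digit is not a, b or c, had 237, 171 and 240 CPM in the controls against 312, 157 and 302 CPM in the anti-Stat3 samples. Its pair changes of 0.40, -0.13 and 0.33 resembled the medians of the members. Higd1a, Bnip3l, Lonp1 and Iscu did not pass, and Lonp1 and Iscu had mean changes near 0.

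**Figure D4:**
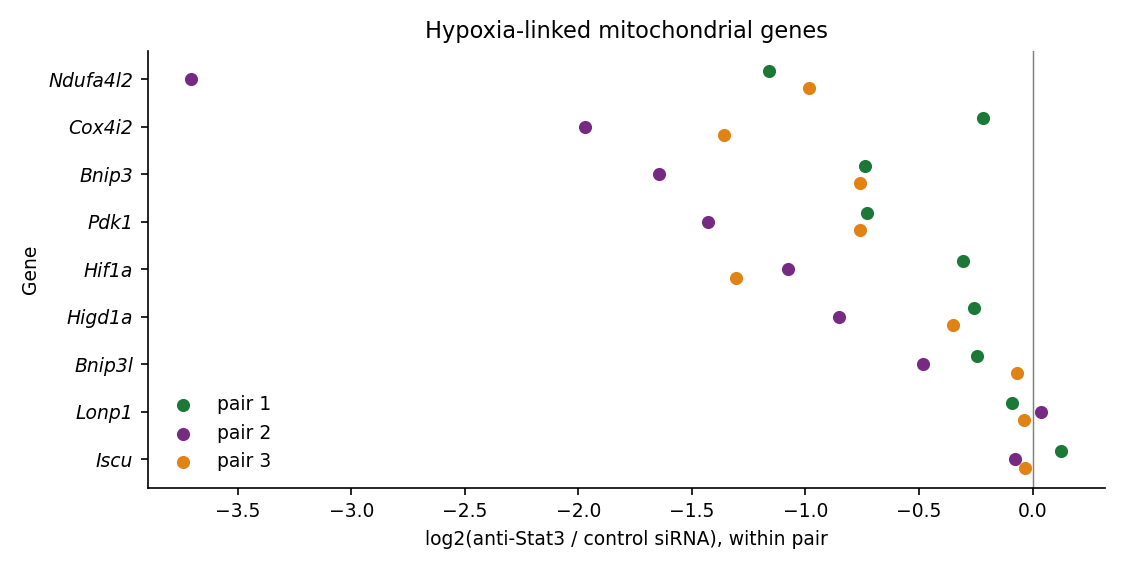
Change within each pair, as log2 of anti-Stat3 over control siRNA, for the 9 genes of the hypoxia-linked list, which are mitochondrial apart from Hif1a. Of these, 7 lie below 0 in all 3 pairs, with the most negative value in pair 2 for each of them except Hif1a.

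Lists of genes that assemble or regulate the chain had smaller median changes than the hypoxia-linked list. No assembly factor or regulator was called by edgeR with the group alone or by blocked edgeR, DESeq2 or limma-voom. Single genes could change more than the medians. Uqcc2, an assembly factor of complex III, had pair changes of 0.67, -0.25 and 0.66. The 13 tested assembly factors of complex I had pair medians of 0.07, -0.00 and 0.25, the 19 of complex IV had 0.09, -0.07 and 0.10, and the 5 of complex III had -0.11, -0.25 and 0.06. The 2 of complex II and the 3 of complex V had pair medians between -0.09 and 0.14. The list of 15 regulators, which includes genes for the copying and reading of mitochondrial DNA, had pair medians of -0.06, -0.02 and -0.12, with 1 higher and 5 (33.3%) lower in all 3 pairs, against 17.3% and 16.4% of all genes.

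None of the named regulators passed. Nrf1, a transcription factor for many subunit genes, had 22.8, 24 and 28.2 CPM in the controls against 20.9, 21.0 and 23.8 CPM in the anti-Stat3 samples, lower within each pair (blocked edgeR adjusted p = 0.580). Esrra, a nuclear receptor for the same genes, had pair changes of 0.09, 0.12 and 0.37, and Tfam, which packages mitochondrial DNA, of -0.15, 0.08 and 0.17. Ppargc1a, the coactivator known as a driver of mitochondrial biogenesis, was scarce, at 0.203, 3.23 and 0.420 CPM in the controls against 0.752, 2.63 and 0.230 CPM in the anti-Stat3 samples. Its levels were high in both samples of pair 2, and Ppargc1b stayed at or below 1.2 CPM. The 18 genes of pyruvate dehydrogenase and the citric acid cycle had pair medians of 0.06, 0.04 and 0.10, with 6 higher (33.3%, against 17.3% of all genes) and 0 lower (16.4% of all genes) in all 3 pairs. Cycs, cytochrome c, and Ndufab1, the acyl carrier subunit, had low counts (0.899 to 3.20 and 3.07 to 6.83 CPM) and did not pass. The search for sequence shared with other genes, described further on, was not run for either, so these levels may not reflect their transcripts.

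Promoters were searched because the members tended to be low in the same samples. RefSeq entries (GRCm38.p6, 250 bases before to 50 after the start) were matched for 66 of the 83 members, as 71 promoters, and compared with all 32851 promoters of that table on both strands. Ndufa4l2 was among the members without a matched entry, so its promoter was not searched and the shares below do not cover it. The NRF1 core GCGCATGC was in 10 of the 71 (14.1%) against 2.71% of all promoters, and the YY1 element AAGATGGC in 9 (12.7%) against 2.75%. The ETS element CCGGAAGT was in 5 (7.04%) against 3.89%. The HIF core ACGTG was in 17 (23.9%) against 19.6%, and the STAT element TTCNNNGAA in 5 (7.04%) against 8.30%. These are matches of letters and not sites, and those of different motifs may overlap. Whether a motif goes with the differences between the numbered pairs was not tested, and not every member with the NRF1 core was called for them. The promoters of Cox6a1 and Sdhb are shown as examples with that core, and both genes were called, as were 41.5% of all genes tested. Their 250 bases before the start lie at chr5:115348959-115349208 (minus strand) and chr4:140961021-140961270 (plus strand). Capitals mark the match, which in Cox6a1 is a pair of overlapping matches, 1 on each strand.
Cox6a1: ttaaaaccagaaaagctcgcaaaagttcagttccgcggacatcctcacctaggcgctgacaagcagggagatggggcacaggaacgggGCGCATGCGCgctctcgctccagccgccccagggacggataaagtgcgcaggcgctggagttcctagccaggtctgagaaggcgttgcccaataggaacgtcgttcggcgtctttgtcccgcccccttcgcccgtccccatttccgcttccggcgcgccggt
Sdhb: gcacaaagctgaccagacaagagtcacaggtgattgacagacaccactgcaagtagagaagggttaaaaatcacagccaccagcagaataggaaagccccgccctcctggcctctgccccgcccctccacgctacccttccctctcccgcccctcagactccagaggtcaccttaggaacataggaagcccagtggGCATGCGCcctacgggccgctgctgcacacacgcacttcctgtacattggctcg

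Levels of some members may not reflect their transcripts, because subunit genes have many processed copies in the mouse genome. The labels and processing notes do not tell how reads that match several genes were counted. Gene models of GENCODE M21 were matched for 82 of the 83 members, and each window of 50 bases was looked for in all other annotated genes. The windows and the lengths were those of 1 transcript per gene, the one with the longest coding sequence, so shares and levels per kilobase depend on that choice. In 13 members at least 30% of the windows were shared, and their median level was 17.7 CPM per kilobase (0.268 to 123). The other 69 had a median of 62.1 CPM per kilobase (0 to 471), and 38 members shared no window. Exons of 27 members overlap an exon of another gene, so a shared window can also come from a neighbouring gene and not from a processed copy. Ndufb6, for example, shared 34.1% of its windows with 1 other gene that is not a pseudogene, and its exons overlap Smim27.

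Low levels were found both in genes with many shared windows and in genes with few or none. Ndufs5, an accessory subunit of complex I with 41.2% of its windows shared, had 2, 1 and 2 counts in the controls and 0, 0 and 7 after anti-Stat3 siRNA, and was not tested. Atp5g2 shared 100% of its windows, Atp5l 84.8%, Ndufa12 53.8% and Cox7c 53.0%, with mean levels of 1.5, 8.06, 8.87 and 4.74 CPM per kilobase. The transcript used had 441 bases for Atp5g2 and 544 for Atp5l, where the exons of these genes cover 1675 and 6443 bases. Ndufb4 shared 37.0% and had 1.25 CPM per kilobase. Atp5s and Atp5sl shared no window and had 3.28 and 8.54 CPM per kilobase. Others with many shared windows were well counted, such as Cox5a (32.0% shared, 123 CPM per kilobase) and Atp5f1 (38.7%, 70.0 CPM per kilobase). A window of the coding sequence that is also held by other annotated genes is shown for Ndufs5 (1 other gene) and Cox7c (2 other genes), from GENCODE M21.
Ndufs5: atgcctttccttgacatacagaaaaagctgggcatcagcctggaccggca
Cox7c: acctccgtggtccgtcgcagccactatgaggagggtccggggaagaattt

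**Figure D5:**
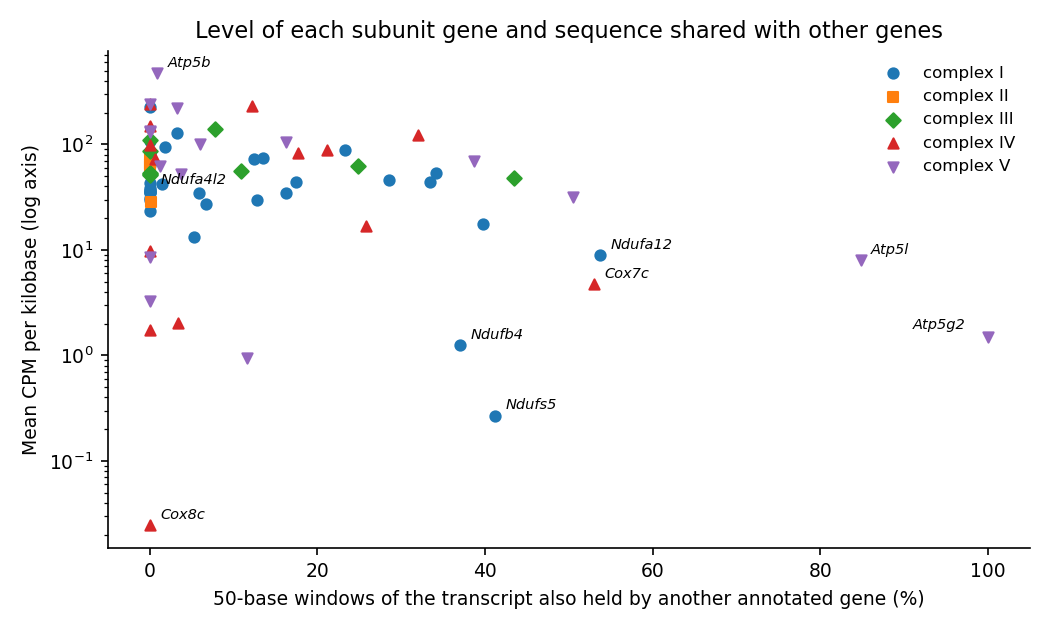
Mean level over the 6 samples in CPM per kilobase of transcript (log axis) of each member with a gene model and at least 1 count, against the share of its 50-base windows also held by another annotated gene. Ndufs5, Atp5g2, Ndufb4 and Cox7c have shared windows and low levels, while Ndufa4l2 has none shared.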

How the data were processed

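The deposited values are raw counts by gene symbol for 6 samples, from TopHat2 2.0.10 and HTSeq with build mm9, as the submitters' processing notes state. The count columns are headed shCtrl and shStat3, whereas the sample titles begin with si, and columns were matched to samples by group and number. RNA was extracted with TRIzol and made into TruSeq libraries, per the labels' protocols. Total counts and the limit for a count of 0 (3 counts) are given with the samples.

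The main test was the edgeR quasi-likelihood F test (edgeR 4.0.16, R 4.3.3) with TMM scaling, filterByExpr (minimum count 10, total 15), the group as the only term, and Benjamini-Hochberg adjustment over 13284 genes at 0.05. Pair changes used log2 CPM with a prior count of 2. The SE given for edgeR was worked back from the test, as the size of the log2 change over the square root of F. Those of DESeq2 and limma-voom came from the fitted models, so the SE values of different tools are not the same quantity. Alternatives were a replicate block, DESeq2 1.42.0, limma-voom (limma 3.58.1), other scalings, no filter, and single samples or pairs left out. The fits were also run on 2 simulated data sets, drawn from means that differed by pair. There the group-only edgeR fit recovered fewer of the changed genes than the blocked fits. A pair effect was built into those data, so the outcome does not decide which fit suits the real samples.

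The titles give both groups the numbers 1 to 3. Across genes, deviations from group means correlated at 0.834, 0.818 and 0.831 for equal numbers and at most at -0.16 for unequal ones. Such deviations sum to 0 within a group, which by itself pushes unequal numbers towards negative values. Over the 79 tested members the values were 0.866, 0.428 and 0.865 for equal numbers, lowest in pair 2, and at most 0.157 for unequal ones. On these values the numbers were taken to pair the samples. The labels do not tell what samples of 1 number have in common.

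The members and lists were chosen with earlier results of these data known. Values by sample are given for catalytic or defining subunits, isoform sets, the extreme mean pair changes of each complex and any member called. Of the members this rule names, 1 is not reported here. Other members shown for their shared sequence were chosen after their values were seen. Lengths and sequences came from GENCODE M21 and RefSeq, which are of another build than the counts.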

Additional observations from a re-analysis of the deposited data

How the results depend on the processing

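The number of all genes called for the siRNA depended on the fit. Against 0 in edgeR with the group alone, 8 were called with the replicate block in edgeR, 8 in limma-voom with it and 220 in DESeq2 with it, and DESeq2 with the group alone called 17. Chosen after seeing the data, edgeR with the replicate block called 9 on library totals and 8 with RLE scaling. With the block and pair 1 left out, edgeR called 703 and DESeq2 432, with pair 2 left out 3 and 14, and with pair 3 left out 0 and 20. Leaving out single samples gave 0 to 40, the 40 without control sample 1. The number of subunit genes called stayed at 0 in these settings except for 1, Ndufa4l2, in blocked edgeR with pair 1 left out. The block changed no other call of a subunit gene. The median subunit change was 0.13 to 0.17 in the fits on all samples and 0.0056 to 0.28 with single samples left out. Of 33 named subunit genes under 21 settings, 683 of 691 values kept their direction or moved by less than the replicate SD, 7 moved further, 1 passed the threshold (that of Ndufa4l2) and 0 reversed a call. The main fit had called 0 genes, so there was no call to reverse and that last count carries no information. The replicate number called 33 to 39 subunit genes in 5 settings. Genes with few counts, such as Atp5g2 and Cox7a1, have imprecise changes at this depth.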
